A study of Homo sapiens with 16 samples.

Results

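The loci of 3 androgen-responsive genes, FKBP5, SLC45A3 and ACSL3, were examined in ChIP-seq peak lists for the ETS factors ERG and GABPα. The members were the peaks that started in 1 of 3 windows of hg18, namely chr6:35550000-35900000 for FKBP5, chr1:203800000-204000000 for SLC45A3 and chr2:223350000-223600000 for ACSL3. The windows held 80 of the 155269 MACS peaks of the 10 ChIP samples, with 38 at FKBP5, 26 at SLC45A3 and 16 at ACSL3. Of the high confidence peaks, which both MACS and a second caller, SWEMBL, had found, 28 lay in the windows. The rule for membership uses position alone.

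VCaP is a human prostate cancer line and Jurkat a human T-cell leukaemia line. VCaP cells were kept for 48 h in medium with charcoal-stripped serum, which is depleted of steroids, and then received 1 nM R1881 (methyltrienolone, a synthetic androgen) or the same volume of ethanol, called vehicle here. Another VCaP group is named t0 in the labels, which do not say what t0 was. Each VCaP treatment had 1 ERG and 1 GABPα library, and Jurkat cells, for which no treatment is labelled, had 2 libraries for each target. The 6 input samples had no peak file among those analysed here, and the headers of the MACS files show that vehicle and R1881 were called against the same input within each target, whereas t0 had an input of its own.

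ETS factors are transcription factors that share a DNA-binding domain and read a core GGAA sequence. GABPα is the DNA-binding subunit of GABP, a widely expressed factor known for binding gene promoters. ERG is normally made in endothelial and some blood-forming cells, and VCaP cells carry the TMPRSS2-ERG fusion, which places ERG under an androgen-responsive promoter. FKBP5 encodes FKBP51, a co-chaperone that works with HSP90, and is a classical androgen-induced gene. SLC45A3 encodes prostein, a membrane transporter found mainly in prostate, and ACSL3 a ligase that activates long-chain fatty acids. Both SLC45A3 and ACSL3 are known 5′ partners of ETS gene fusions in prostate cancer.

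Promoter sequences of the 3 genes are shown because ERG peaks were listed around each of them with R1881, and that of ELK4 because this ETS gene lies next to SLC45A3 in RefSeq's gene order. They come from RefSeq (GRCh38.p14) and run 5′ to 3′ over 280 bases, from 250 bases before the annotated start to 30 after it. Capitals mark CCGGAAGT, an extended ETS site, searched on both strands. These positions are on another build than the peaks and cannot be set against them. The FKBP5 promoter shown, which is not the only one listed for that gene, lies at chr6:35728554-35728833. The promoter of SLC45A3 lies at chr1:205680480-205680759 and that of ELK4 at chr1:205631982-205632261. These are all on the minus strand, and that of ACSL3 lies at chr2:222860786-222861065 on the plus strand.
FKBP5: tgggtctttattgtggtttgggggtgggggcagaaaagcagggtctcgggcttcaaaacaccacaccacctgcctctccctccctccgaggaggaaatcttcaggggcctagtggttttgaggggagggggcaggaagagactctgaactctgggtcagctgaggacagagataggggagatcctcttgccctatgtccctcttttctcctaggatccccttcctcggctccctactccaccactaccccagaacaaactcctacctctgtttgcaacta
SLC45A3: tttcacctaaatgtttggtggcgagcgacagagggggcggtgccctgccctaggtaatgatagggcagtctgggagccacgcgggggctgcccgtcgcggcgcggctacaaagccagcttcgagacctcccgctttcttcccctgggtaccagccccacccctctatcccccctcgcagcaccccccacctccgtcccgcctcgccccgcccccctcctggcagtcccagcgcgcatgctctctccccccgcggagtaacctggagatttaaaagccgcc
ACSL3: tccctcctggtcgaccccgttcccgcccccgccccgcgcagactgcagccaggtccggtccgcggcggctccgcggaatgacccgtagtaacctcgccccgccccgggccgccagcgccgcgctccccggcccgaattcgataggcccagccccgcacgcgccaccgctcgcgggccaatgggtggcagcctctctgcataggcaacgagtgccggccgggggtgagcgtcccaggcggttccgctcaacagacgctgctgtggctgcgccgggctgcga
ELK4: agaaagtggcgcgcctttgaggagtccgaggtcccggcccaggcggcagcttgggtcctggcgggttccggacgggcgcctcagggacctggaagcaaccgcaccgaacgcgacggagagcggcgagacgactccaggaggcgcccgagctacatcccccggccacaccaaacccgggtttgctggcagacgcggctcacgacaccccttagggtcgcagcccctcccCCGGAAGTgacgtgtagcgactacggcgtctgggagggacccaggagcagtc

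CCGGAAGT was found once in the 4 sequences, in ELK4 on the printed strand from base 229, and in 4.06% of 35116 RefSeq promoters of this length. The core GGAA, which CCGGAAGT contains, occurred 3 times in FKBP5, once in SLC45A3, 3 times in ACSL3 and 3 times in ELK4, and 94.5% of all promoters held it. RefSeq lists a second FKBP5 promoter, at chr6:35688886-35689165 on the minus strand, which held GGAA once and no CCGGAAGT. Which of the FKBP5 promoters is used in these cells cannot be told from the peak lists. Promoters were found for 7 of the 9 genes searched, the 3 members and the protein-coding gene on either side of each. The 3 other neighbours with a promoter, TULP1, NUCKS1 and MOGAT1, held no CCGGAAGT.

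Peaks are compared by their MACS score, which is the p-value on a −10 × log10 scale, so that the lowest score listed, 50, stands for a p-value of 1e-05. The score rises with the number of reads in a library as well as with enrichment, and the files hold no read numbers, so the depth behind the scores is unknown. The samples listed between 6963 and 23947 MACS peaks and between 2 and 9769 high confidence peaks, and the lowest of both counts belonged to ERG at t0. It stood apart in its high confidence peaks, where the next lowest count was 743. Its MACS count was near the 7288 of Jurkat ERG replicate 1. With 1 library for each VCaP group there is no replicate spread and no test for any VCaP difference below. For ERG, the catalogue number in the labels is not the one in the study's methods. Which of the antibodies was used, and so which protein was precipitated in the samples labelled ERG, cannot be told from the descriptions, and ERG below means the samples so labelled.

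ERG peaks at the 3 loci were most numerous with R1881. There were 2 ERG peaks in the windows at t0, 8 with vehicle and 26 with R1881, which is 3.25 times as many with R1881 as with vehicle. Over the genome, the number of ERG peaks with R1881 was 1.23 times that with vehicle. From vehicle to R1881 the number went from 1 to 13 at FKBP5, from 6 to 7 at SLC45A3 and from 1 to 6 at ACSL3. At SLC45A3 the vehicle peaks were pieces of regions that were called as broad peaks with R1881. In density, the windows held 32.5 ERG peaks per Mb with R1881 and 10.0 with vehicle, against 7.98 and 6.50 per Mb over the genome. High confidence ERG peaks numbered 11 with R1881 and 0 with vehicle or at t0, out of 2229, 743 and 2 over the genome, so the 0 at t0 says nothing of these loci. With vehicle the genome held 0.248 high confidence ERG peaks per Mb, so few or none would fall in the windows. The 0 with vehicle therefore says little either. With R1881 the windows held 13.8 per Mb, against 0.743 over the genome.

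GABPα peaks numbered 3 at t0, 10 with vehicle and 14 with R1881, 1.40 times as many with R1881 as with vehicle in the windows and 1.06 times over the genome. In density, the windows held 17.5 GABPα peaks per Mb with R1881 and 12.5 with vehicle, against 5.01 and 4.73 per Mb over the genome. For high confidence GABPα peaks the order was the other way, with 4 with vehicle and 3 with R1881, and 1 at t0. Over the genome these peaks numbered 6365, 5987 and 2851, so the genome count was also lower with R1881 than with vehicle. In Jurkat cells, GABPα had 6 peaks in each replicate, of which 4 in each were high confidence. ERG had 1 and 4 in the Jurkat replicates, a mean of 2.50 ± 2.12 (SD, n = 2), of which 0 and 1 were high confidence. No Jurkat ERG peak lay in the 200 kb of the SLC45A3 window. Over the genome Jurkat ERG had 2.43 and 5.08 peaks per Mb in the replicates, so that few or none would fall in a window of this length.

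**Figure D1:**
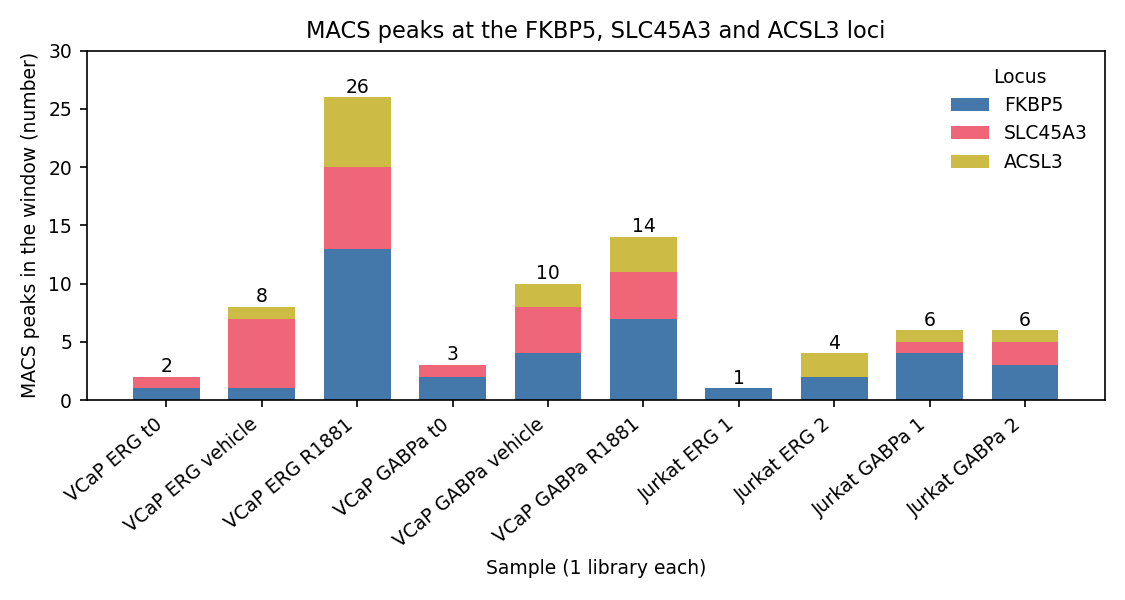
Number of MACS peaks (y axis) in the 3 windows for each of the 10 libraries (x axis), with colours for the locus and the total above each bar. ERG in VCaP cells with R1881 had 26 peaks, 8 with vehicle and 2 at t0, while GABPα had 14, 10 and 3.

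Peaks of all samples that overlapped by at least 1 bp were merged, which gave 40 regions, 22 at FKBP5, 8 at SLC45A3 and 10 at ACSL3. A region is named below by the distance of its centre from the centre of the locus's highest-scoring ERG peak with R1881, in kb along hg18. The 17 regions with a high confidence peak or a score of at least 200 in some sample, 10 at FKBP5, 4 at SLC45A3 and 3 at ACSL3, are described singly.

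The highest ERG score of the 3 windows was at SLC45A3. This 0.0 kb region, chr1:203870387-203875150, scored 78.6 for ERG at t0, 355 with vehicle and 2080 with R1881, and no GABPα or Jurkat sample had a peak there. The score with R1881 was 5.86 times that with vehicle and exceeded 99.9% of the ERG peaks of its library. With R1881 it was called as 1 peak of 4764 bp, longer than 99.9% of the ERG peaks of that library, whose median length was 485 bp. With vehicle the same stretch held 5 separate peaks, with scores from 68.7 to 355. SWEMBL split the broad R1881 peak into 2 narrow high confidence intervals, chr1:203871552-203871698 and chr1:203873910-203874099.

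The neighbouring region at -4.4 kb, chr1:203866405-203870332, lay 54 bp away and was the only region of the 3 loci with peaks in 7 samples. ERG scored 361 with vehicle and 990 with R1881 there, a 2.74-fold difference, and had no peak at t0 or in Jurkat cells. GABPα scored 234 at t0, 644 with vehicle and 633 with R1881, and 333 and 177 in the Jurkat replicates. The ERG score was thus higher with R1881 while the ratio of the GABPα scores, R1881 to vehicle, was 0.984. With R1881 the MACS peaks of both factors overlapped in this region, and a weaker ERG peak of 86.7, chr1:203866405-203867263, also overlapped a GABPα peak. The narrow high confidence intervals of the factors lay apart. The narrow GABPα interval with R1881, chr1:203867688-203867861, ended 1417 bp before the first narrow ERG interval, chr1:203869279-203869467, and the GABPα interval with vehicle ended 1402 bp before it.

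In both Jurkat replicates GABPα also had narrow intervals in 2 places of this region. SWEMBL placed 1 at chr1:203867686-203867877 in replicate 2 and chr1:203867687-203867919 in replicate 1, over the VCaP GABPα interval. The other, chr1:203866897-203867087 in replicate 2, was split in 2 in replicate 1 and had no SWEMBL interval in VCaP cells. MACS did list VCaP GABPα peaks over it, chr1:203866537-203868364 with vehicle, which spans both places and scored 644, and chr1:203866524-203867543 with R1881, which scored 204.

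**Figure D2:**
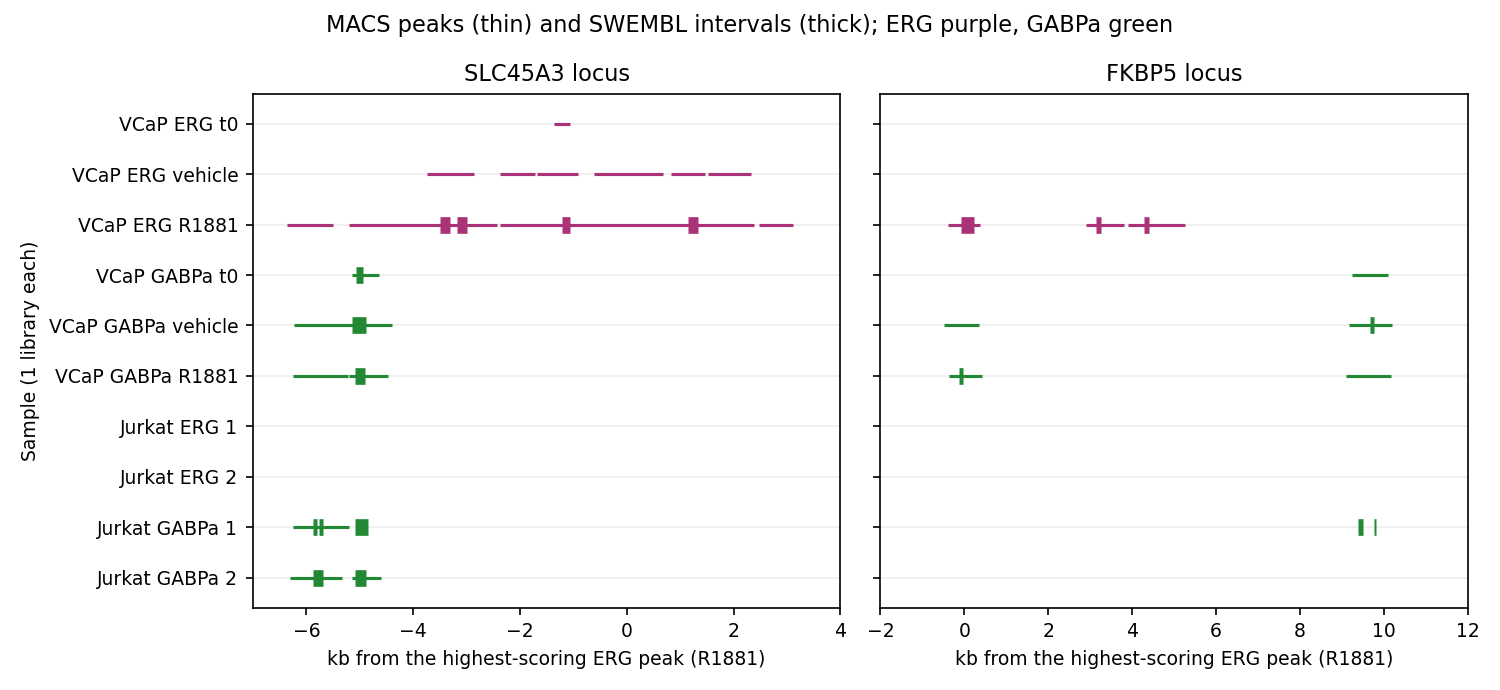
Extent of MACS peaks (thin lines) and SWEMBL intervals (thick bars) in the 10 libraries around the highest-scoring ERG peak with R1881 of SLC45A3 (left) and FKBP5 (right), with the distance from that peak's centre in kb on the x axis. At SLC45A3 the GABPα bars lie before the ERG bars with a gap of 1417 bp with R1881, and at FKBP5 the bars of both factors overlap at 0 kb by 37 bp.

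The other 2 named SLC45A3 regions were led by GABPα. At -54.7 kb, chr1:203817667-203818387, GABPα scored 156 with vehicle and 354 with R1881, 2.27-fold higher, and ERG had a peak of 75.8 with R1881. No high confidence peak was listed there in any sample. At 31.6 kb, chr1:203903963-203904785, GABPα scored 94.5 with vehicle and 122 with R1881, and no other sample had a peak.

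FKBP5 had the largest score ratios between R1881 and vehicle. Its 0.0 kb region, chr6:35797876-35798773, scored 807 for ERG with R1881 and had no ERG peak with vehicle or at t0. GABPα scored 164 with vehicle and 609 with R1881 and had no peak at t0, and no Jurkat sample had a peak. With a library that lacks a peak set to the lowest score it lists, ERG was 16.1-fold higher with R1881, a number that depends on that floor, and GABPα was 3.71-fold higher. The ERG score stood above 99.1% of the peaks of its library, and the GABPα score above 76.8%. The narrow intervals of both factors overlapped by 37 bp, ERG at chr6:35798283-35798575 and GABPα at chr6:35798229-35798319. This was the only place in the windows where high confidence peaks of ERG and GABPα overlapped with R1881.

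A second FKBP5 region of this kind lay at -180.4 kb, chr6:35617719-35618282. ERG scored 641 and GABPα 264 with R1881, and no other sample had a peak. The ratios to the floor with vehicle were 12.8 for ERG and 5.28 for GABPα. Here the ERG peak was high confidence and the GABPα peak was not.

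The highest FKBP5 scores of all belonged to Jurkat GABPα, 885 bp further along. At -178.8 kb, chr6:35619168-35619839, GABPα scored 1223 and 1234 in the Jurkat replicates, each above 97.2% of the peaks of its library. In VCaP cells the same region had a GABPα peak of 72.7 with R1881 and none with vehicle or at t0, and ERG had none in either line. The VCaP value lay above 29.6% of the peaks of its library. Another Jurkat GABPα region, at -199.6 kb (chr6:35598304-35599292), scored 217 and 137 in the replicates and had no VCaP peak. Both Jurkat regions were high confidence in both replicates.

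Jurkat ERG had 1 named region. At -120.6 kb, chr6:35677421-35678107, it scored 74.7 and 280 in the replicates, with a high confidence peak in replicate 2 alone. ERG with R1881 scored 139 there in VCaP cells, where vehicle and t0 had no peak. It was the only region of the windows with ERG peaks in both cell lines.

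GABPα had a peak with vehicle at 3 further FKBP5 regions. At -174.7 kb, chr6:35623187-35624097, it scored 54.1 at t0, 200 with vehicle and 266 with R1881, and ERG scored 86.1 with vehicle and 168 with R1881. The ERG ratio of 1.95 was just under the 2-fold limit. At 9.6 kb, chr6:35807440-35808535, GABPα scored 81.6 at t0, 278 with vehicle and 205 with R1881. At 32.5 kb, chr6:35830439-35831180, it scored 348 with vehicle and 159 with R1881, 0.456-fold, which was the only region of the windows at least 2-fold lower with R1881 for either factor. ERG had no peak at 9.6 or 32.5 kb in any sample. The last 2 named FKBP5 regions, at 3.4 kb (chr6:35801260-35802152) and 4.6 kb (chr6:35802244-35803615), had a peak for ERG with R1881 alone, with scores of 163 and 102, and both were high confidence.

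At ACSL3 the 3 named regions lay within about 10 kb of each other. Each met the naming rule only through ERG with R1881, so its highest score in that sample follows from the rule. An unnamed ACSL3 region at 82.0 kb scored 155 for GABPα with vehicle and 84.1 with R1881, and had no ERG peak. The 0.0 kb region, chr2:223368741-223370242, scored 141 for ERG with vehicle and 523 with R1881, 3.72-fold higher, and 149 and 107 for GABPα, 0.719-fold. Neither factor had a peak there at t0. The region at -10.1 kb, chr2:223359098-223359687, scored 326 for ERG with R1881 and had no other peak. The region at -4.3 kb, chr2:223364759-223365672, scored 306 for ERG and 110 for GABPα with R1881 and had no peak in the other samples. Against the floor these ERG scores were 6.52-fold and 6.12-fold higher with R1881, and the GABPα score was 2.21-fold higher. No named ACSL3 region had a Jurkat peak.

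**Figure D3:**
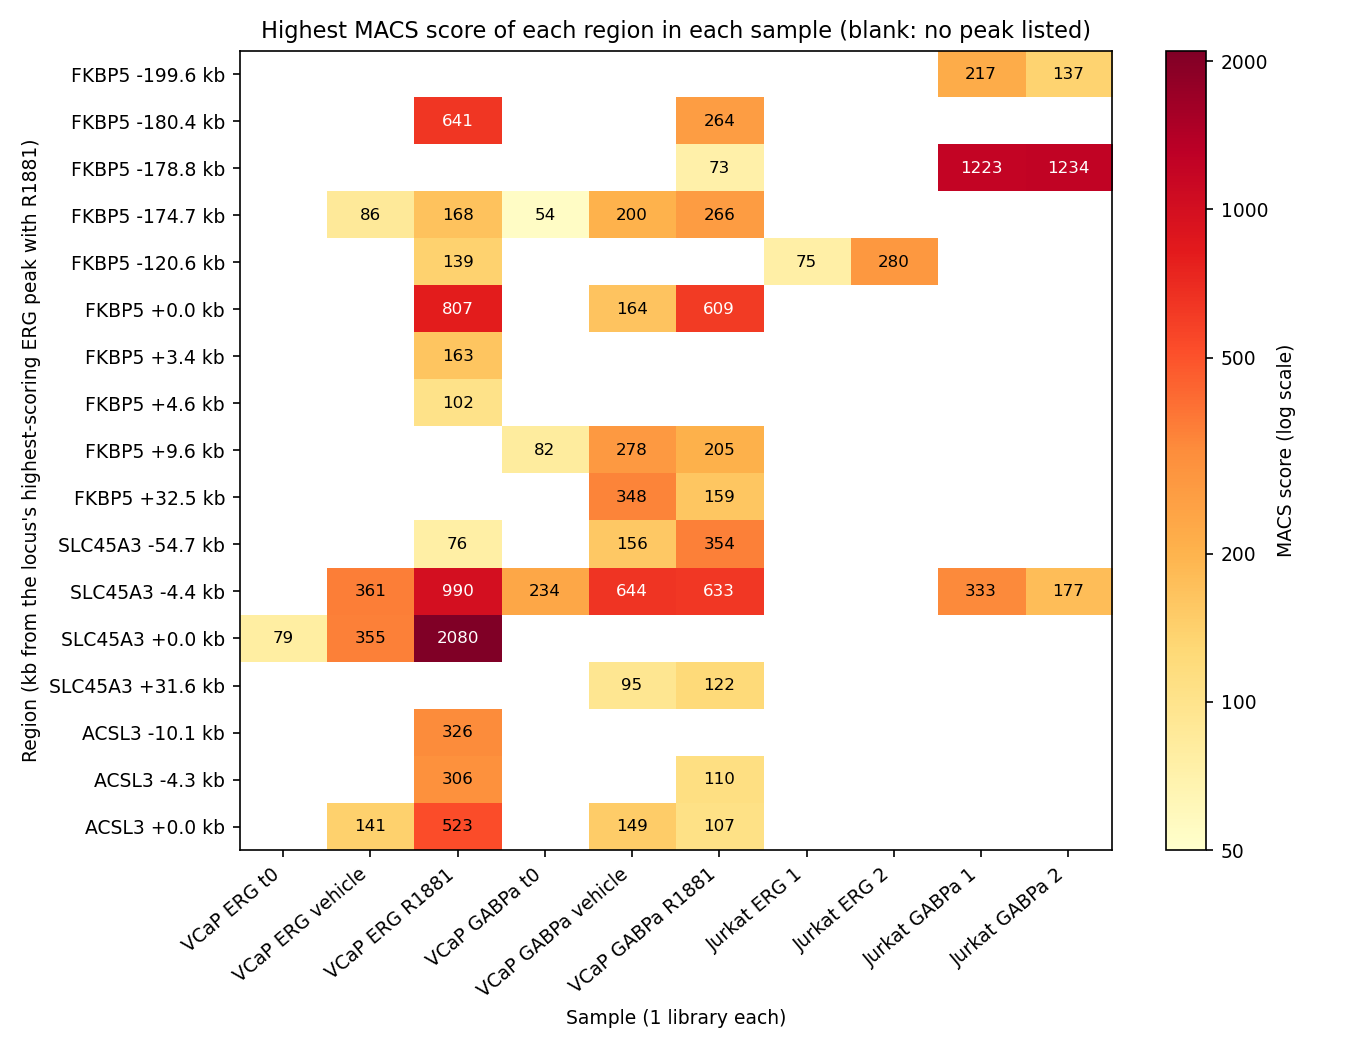
Highest MACS score (number and colour, log scale) of the 17 named regions (rows) in the 10 libraries (columns), where a blank cell means that no peak was listed. In the ERG column with R1881 scores reach 2080, at SLC45A3 0.0 kb, and the Jurkat GABPα columns reach 1234 at FKBP5 -178.8 kb, where VCaP GABPα with R1881 has 72.7. In the row of SLC45A3 -4.4 kb the MACS peaks of ERG and GABPα overlap with R1881, while their high confidence intervals lie apart.

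The other 23 regions were weaker, with highest scores from 53.4 to 165, and 20 of them had a peak in 1 sample. ERG with R1881 had a peak in 13 of the 23, none of which had an ERG peak with vehicle. A further 7 had Jurkat peaks only, 2 VCaP GABPα peaks only and 1 an ERG peak at t0 only. Over all 40 regions, 29 had peaks in VCaP samples only, 8 in Jurkat samples only and 3 in both lines. The same split was not computed over the genome, and VCaP had more samples than Jurkat. The split therefore does not set these loci apart.

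The comparison of R1881 with vehicle asked whether androgen changed the binding of each factor at these genes. For ERG, 15 of the 26 regions formed by the vehicle and R1881 peaks of the windows scored at least 2-fold higher with R1881, against 15.9% of 35555 regions over the genome. They were 8 of 13 at FKBP5, 3 of 7 at SLC45A3 and 4 of 6 at ACSL3. None scored at least 2-fold lower, against 4.72% over the genome. The 22 regions with no vehicle peak could not score lower under the floor rule, so this 0 says little of the loci. A peak with R1881 and none with vehicle was found in 22 of the 26, against 45.6%, and all 8 vehicle peaks of the windows overlapped an R1881 peak, against 40.4%. Of these 8, 6 were pieces of 1 stretch at SLC45A3, so they are not 8 separate places. The median ratio was 2.30 in the windows and 1.07 over the genome. In the 4 window regions with a peak in both samples, all 4 ratios were above 1 and their median was 3.23, against 1.16 for the 7703 such regions of the genome. Only these 4 ratios are free of the floor, and 3 of them reached 2-fold. Of the 4 regions, 2 were the SLC45A3 regions that lie 54 bp apart.

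For GABPα, 4 of 14 regions scored at least 2-fold higher with R1881, against 6.61% of 19240 regions over the genome, and 1 scored at least 2-fold lower, against 5.64%. The 4 were the FKBP5 regions at 0.0 and -180.4 kb, the SLC45A3 region at -54.7 kb and the ACSL3 region at -4.3 kb. A peak with R1881 alone was found in 4 of the 14, against 26.5%, and 9 of the 10 vehicle peaks overlapped an R1881 peak, against 69.9%. The median ratio was 1.31 in the windows and 1.01 over the genome. In the 9 regions with a peak in both samples the ratios lay on both sides of 1, with 4 above it and a median of 0.984.

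**Figure D4:**
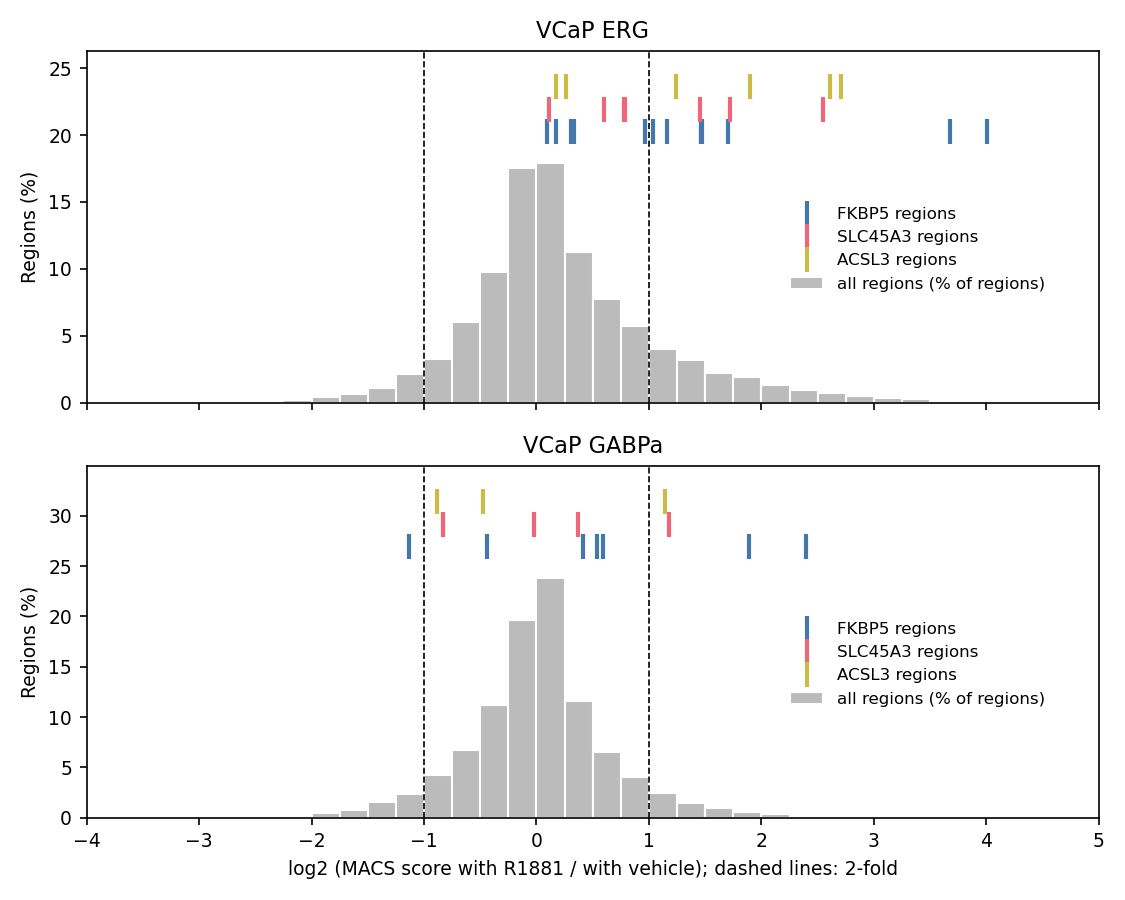
Ratio of the MACS score with R1881 to that with vehicle (x axis, log2) for ERG (top) and GABPα (bottom), with the share of all regions in per cent as grey bars and the regions of the 3 loci as coloured ticks. Of the ERG ticks 15 of 26 lie at or beyond the right dashed line (2-fold) and none beyond the left, while the GABPα ticks lie on both sides of 0 with 4 of 14 beyond the right line.

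The GABPα regions were then divided by what ERG did at the same place, a division made after the values had been seen. Of the 6 GABPα regions of the windows that overlapped an ERG region at least 2-fold higher with R1881, 3 were themselves at least 2-fold higher for GABPα, against 30.7% of the 1990 such regions over the genome. Of the 2 that overlapped an ERG region that was not 2-fold higher, 1 was higher for GABPα, against 6.97% of 3416. None of the 6 without an ERG peak was higher for GABPα, against 3.06% of 13834. These are small numbers without replicates, and the difference between the 3 kinds of region was not tested.

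ERG and GABPα shared 9 of the 31 regions formed by their R1881 peaks in the windows, against 11.0% of 35043 over the genome. With vehicle they shared 2 of 16, the ACSL3 region at 0.0 kb and the FKBP5 region at -174.7 kb, against 8.13% of 31069. At t0 they shared 0 of 5, against 1.07%, and in Jurkat replicates 1 and 2 they shared 0 of 7 and 0 of 10, against 8.51% and 12.7%. The counts with vehicle, at t0 and in Jurkat cells are too small to set the windows apart from those shares. With R1881 the share in the windows was above that of the genome, a difference that was not tested. Of the 9 shared with R1881, 4 were at FKBP5, 3 at SLC45A3 and 2 at ACSL3. Narrowed to high confidence intervals, 1 of the 9 remained, the FKBP5 region at 0.0 kb. GABPα had 3 high confidence peaks in the windows with R1881, so few overlaps were possible. The genome share of such overlaps was not computed, so this count does not set the loci apart.

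**Figure D5:**
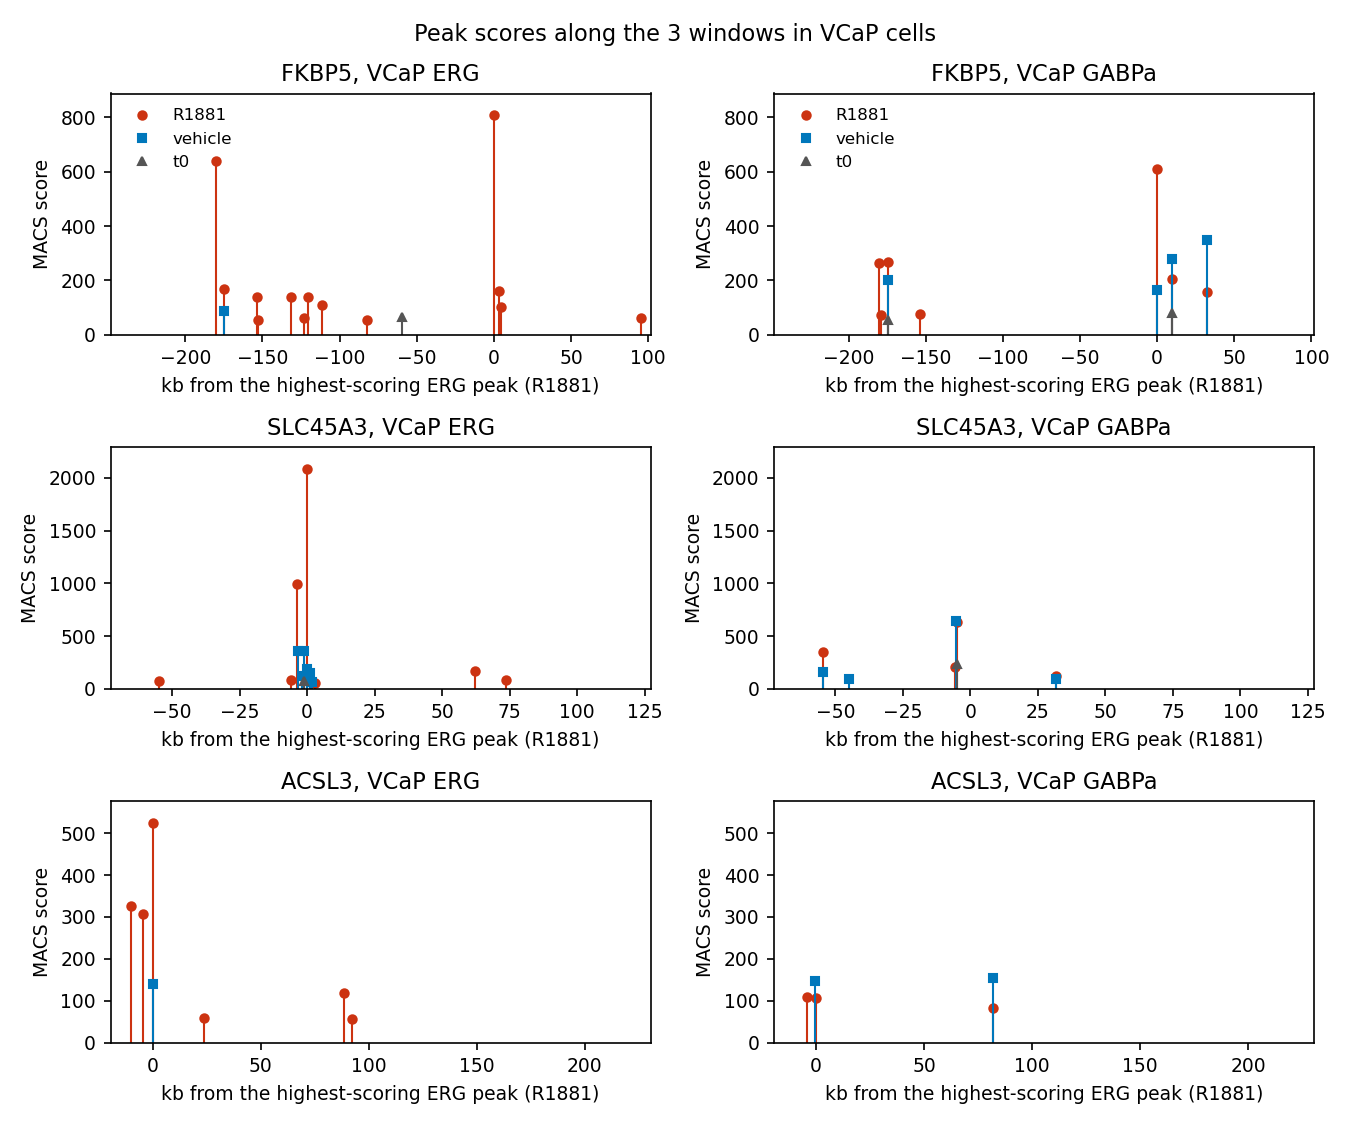
MACS scores (y axis) of VCaP peaks along the FKBP5, SLC45A3 and ACSL3 windows (rows) for ERG (left) and GABPα (right), with the distance from the highest-scoring ERG peak with R1881 in kb on the x axis and a colour and marker for each treatment. At FKBP5 the ERG scores of 807 and 641 with R1881 have no vehicle marker beside them, and the GABPα marker at 32.5 kb is higher with vehicle (348) than with R1881 (159).

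Scores were also compared between vehicle and t0. For ERG, 6 of 9 regions of the windows scored at least 2-fold higher with vehicle than at t0, against 19.4% over the genome, 5 of them at SLC45A3 and 1 at ACSL3, and none scored 2-fold lower, against 0.534%. The 5 at SLC45A3 lay side by side in chr1:203869034-203874235, so they are pieces of 1 stretch rather than separate places. For GABPα, 8 of 10 were higher with vehicle, against 38.0%, and none was lower, against 0.525%. For each factor 7 regions had no t0 peak and could not score lower, so neither 0 says much. GABPα scores over the 4631 regions of the genome called in both samples were 3.00-fold higher with vehicle at the median, and relative to that shift 1 of the 10 regions, FKBP5 at 32.5 kb, was still at least 2-fold higher. For ERG the corresponding median was 1.69 over 799 regions, and 3 of the 9 remained, all of them pieces of the SLC45A3 stretch. The genome share after the same division was not computed for either factor, so the remaining counts do not set these loci apart. These comparisons rest on the t0 libraries, which had inputs of their own and listed the fewest peaks for each target in VCaP cells.

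Across the cell lines, GABPα peaks were shared in 2 regions and ERG peaks in 1. These numbers are too small to set the loci apart from the genome shares given here. Of the 14 GABPα peaks with R1881, 3 overlapped a GABPα peak of a Jurkat replicate, against 28.9% over the genome. They were the 2 VCaP peaks in the SLC45A3 region at -4.4 kb and the FKBP5 peak at -178.8 kb. For ERG, 1 of the 26 R1881 peaks was also called in Jurkat cells, the FKBP5 peak at -120.6 kb, against 3.86%. With vehicle, 0 of 8 ERG peaks were also called in Jurkat cells, against 4.78%, and 1 of 10 GABPα peaks, against 31.1%. At ACSL3 neither factor had a region with peaks in both lines. Between the Jurkat replicates, 3 of 6 GABPα peaks of each replicate overlapped one of the other, against 72.7% of replicate 1 and 71.0% of replicate 2 over the genome. For ERG, 1 of 1 and 1 of 4 did, against 49.4% and 21.2%.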

How the data were processed

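ChIP-seq for ERG and GABPα was available as peak lists for 10 samples. The authors aligned single-end reads to hg18 with BWA 0.5.5, removed duplicates and reads of low alignment quality, and compared each ChIP library with its input by MACS and by SWEMBL; the MACS version is not given in the sources used here. The deposited MACS files give each peak a score, which is −10 × log10 of its p-value, and the high confidence files of 7 samples repeat that score, whereas those of 3 samples and all SWEMBL files were used as intervals only. Positions are 1-based.

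Everything else was computed in Python 3.11.15 and drawn with matplotlib. Regions were merged at 1 bp of overlap, and higher or lower meant a score ratio of 2 or more either way, with an absent peak set to the library's lowest score. Overlap and merging were checked on simulated intervals. No test was run, since each VCaP group had 1 library. The windows, genes and lists were chosen with earlier results of these data known. Regions were named where a sample had a high confidence peak or a score of 200 or more. No hg18 genome or annotation was used here, so peaks were not placed in exons, introns or promoters and no peak sequence was read. A motif planned for the promoter search is not reported here. Alternatives covered the fold, scaling, overlap, score minimum, peak set, window width and Jurkat replicate.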

Additional observations from a re-analysis of the deposited data

Results flagged for a closer look

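The comparisons rest on MACS peaks, and 4 SWEMBL intervals in the windows had no MACS peak of the same sample, all of them in Jurkat GABPα. In replicate 1 they lay at chr1:203867687-203867919 (SLC45A3) and at chr6:35807737-35807854 and chr6:35808110-35808168 (FKBP5), and in replicate 2 at chr6:35830724-35830858 (FKBP5). The first place had a MACS peak in 5 other samples, including Jurkat GABPα replicate 2. The FKBP5 places in replicate 1 coincide with the VCaP GABPα region at 9.6 kb, and that in replicate 2 with the one at 32.5 kb, so MACS and SWEMBL give a different count of GABPα places shared by both lines. Over the genome, 23.1% and 17.4% of the Jurkat GABPα SWEMBL intervals had no MACS peak, against 1.89% to 2.54% for VCaP GABPα. The files hold no level in the input samples for these places.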

How the results depend on the processing

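Of 53 alternative values, 36 stayed within 1.5 times the reported value and 17 did not. With a fold of 3, 8 ERG regions and 2 GABPα regions were higher with R1881. With regions called in both samples only, the counts were 3 for ERG and 2 for GABPα between R1881 and vehicle, and 1 for ERG and 3 for GABPα between vehicle and t0. Divided by the median ratio of shared regions, 3 ERG regions and 1 GABPα region were higher with vehicle than at t0. With high confidence peaks, 0 ERG and 1 GABPα peak with R1881 were found in Jurkat cells, 1 region held both factors, and the ratio of GABPα peak numbers between R1881 and vehicle turned to 0.750. The same ratio could not be formed for ERG, which had 0 such peaks with vehicle. With VCaP vehicle in place of R1881, 0 ERG and 1 GABPα peaks were found in Jurkat cells and 2 regions held both factors. Leaving out either Jurkat replicate gave 1 shared ERG peak each time and 2 to 3 shared GABPα peaks, and Jurkat ERG peak numbers of 1 to 4. By construction, the fold of 3 is a stricter limit, the division rescales every ratio, and regions called in both samples, high confidence peaks and the vehicle set bring in fewer regions or peaks. Beyond this the cause was not tested. No paired analysis was possible because each VCaP group had 1 library and no test was run.

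Read depth is unknown, so neither an absent peak nor a lower score can be separated from a shallower library, and a score ratio is not a fold enrichment.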

Other observations

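The windows were also widened by 100 kb on either side. The flanks held 5 ERG peaks with R1881, with scores from 53.2 to 73.5, which is 8.33 per Mb and near the 7.98 per Mb of the genome. With vehicle they held 2, and the number of ERG regions at least 2-fold higher with R1881 was 15 in the widened windows as in the original ones. GABPα had 3 flanking peaks with vehicle, with scores up to 836, and 3 with R1881, with scores up to 299. Jurkat GABPα had 7 and 6 flanking peaks, with scores up to 617 and 661, more than the 6 in the windows of replicate 1.

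The length of the ERG peaks with R1881 differed among the loci. At SLC45A3 the peaks of 4764 and 2759 bp were longer than 99.9% and 99.6% of the ERG peaks of the library, and at ACSL3 the 0.0 kb peak of 1435 bp was longer than 98.5%. At FKBP5 the peaks with the highest ERG scores were short, 761 bp at 0.0 kb and 506 bp at -180.4 kb, longer than 87.6% and 54.8%, while the weaker peak at 4.6 kb, with a score of 102, ran over 1372 bp, longer than 98.3%.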
